A study of Mus musculus with 3 samples.

Results

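A set of genes that make, carry, break down and sense retinoic acid, 9 of the 32285 genes in the count tables, was followed in cells from mouse skin wounds. They were *Aldh1a1*, *Aldh1a2*, *Aldh1a3*, *Rbp4*, *Crabp1*, *Crabp2*, *Cyp26b1*, *Rarb* and *Rarg*, each found by its Ensembl ID, and the name of the group covers synthesis, binding and breakdown although *Rarb* and *Rarg* are receptors. They had been chosen because their levels differed among days and cell types in these same libraries, so their levels are a description and no test was made on them. The samples were 3 single-cell libraries of wound tissue from C57BL/6J mice, wild type and without any added agent, taken on Day 3, Day 7 and Day 14 post injury. The methods describe young adult males with excisional wounds while the series text calls the injury incisional, and unwounded skin was not analysed here. Each day was 1 library of cells pooled over several wounds, so there was no replicate error, and each comparison below is between libraries and not between days with a measured spread.

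Vitamin A reaches tissues as retinol bound to a carrier protein, is oxidised inside cells to retinal and then to retinoic acid, and the last step cannot be reversed. Retinoic acid is handed to nuclear receptors by small binding proteins and is removed by cytochromes of the Cyp26 family, so that a cell's exposure depends on what it makes, what it receives and what it destroys. In skin, retinoids are known for their part in the differentiation of keratinocytes, in the hair follicle and in the behaviour of dermal fibroblasts.

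Some genes that retinoic acid controls carry a direct repeat of a short half-site to which its receptors bind, and the promoter of *Rarb*, which encodes retinoic acid receptor beta, is the textbook case. RefSeq promoter windows (GRCm38.p6, from 250 bases before to 50 bases after the start) were matched for 7 of the 9 genes, in 10 windows, and not for *Aldh1a3* and *Crabp2*. The half-sites searched, on both strands, were AGGTCA with its variant AGTTCA, and GGGTCA with its variant GGTTCA. A repeat with 5 bases between the half-sites was found in 1 of these 7 genes, *Rarb*, and in 32 of 32851 windows, or 0.0974%. Of the *Rarb* window, 113 bases are shown because the repeat sets it apart from the windows of the other members, with the 2 half-sites of the repeat in capitals. Another half-site searched, GGGTCA, lies before them in lower case. The stretch is read 5′ to 3′ on the minus strand of chr14:16575477-16575589.

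Rarb promoter: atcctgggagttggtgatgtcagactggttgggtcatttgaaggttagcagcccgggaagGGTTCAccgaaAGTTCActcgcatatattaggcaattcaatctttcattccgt

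The repeat ran from 53 to 37 bases before the start. Repeats with a spacer of 1 base or of 2 bases were found in 0 of the 10 windows, against 0.222% and 0.268% of all windows, and single half-sites were common, in 43.7% of windows. A match of letters is not a bound site. *Rarb* spans chr14:16430839-16819156 and this start lies inside it, and counts from the 3′ end of transcripts do not tell which start was used.

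The libraries held 38133650, 120940799 and 112713257 unique molecular identifiers (UMIs, one for each captured transcript) on Days 3, 7 and 14, and 4361, 19591 and 13511 cells were kept. Cells were clustered without the 9 genes, and clusters were called "like" a cell type from marker lists. Fibroblast-like cells numbered 383, 5843 and 6597, and macrophage-like cells 2565, 8621 and 2518. Mesenchymal-like cells numbered 4, 63 and 724, and were 1 cluster led by *Prlr*, *Slc26a7*, *Igfbp3*, *Wif1* and *Bmp4*. Levels are CPM, the UMIs of a gene for each 1000000 UMIs of the same cells, with exact Poisson intervals at 95% that cover counting error only. All 8 fibroblast markers were present in the fibroblast-like cells of each day, with a summed level of 50736 to 108528 CPM. The Day 3 fibroblast-like cells were much deeper, with a median of 45505 UMIs against 10344 and 10283, and lay mostly in clusters 12 and 21, while those of Day 14 lay mostly in clusters 3, 7, 10 and 16. A cluster mostly of 1 library may mark that library, and day and library cannot be told apart. Libraries shared 19 to 111 cell barcodes in pairs, and the transcript *Gm42418* took 36028, 116759 and 64182 CPM of the 3 libraries.

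Most transcripts of the 9 genes came from fibroblast-like cells on Day 3. Among named classes with at least 50 cells, the fibroblast-like level of that day was the highest for 8 of the 9 genes, all but *Aldh1a2*. Besides fibroblast-like cells, only macrophage-like, dendritic-like and neutrophil-like cells reached that limit on Day 3. The counts of genes for Day 3 and for later days are thus over unlike sets of classes. The 4 mesenchymal-like cells held 17 *Crabp1* UMIs and the 10 pericyte-like cells 31 *Cyp26b1* UMIs, and neither class was ranked. The 284 unnamed cells of that day, which were not ranked, had *Crabp1* at 73.2 CPM (50.7 to 102). Of their 34 *Crabp1* UMIs, 33 lay in cluster 14. Its best marker list was that of fibroblasts, with 8 markers, and it stayed unnamed because of its low UMIs. On Days 7 and 14 the fibroblast-like level was the highest for 3 of the 9 genes, the synthesis enzymes *Aldh1a1* and *Aldh1a3* and the carrier *Rbp4*. For *Aldh1a3* on Day 7, however, the epithelial-like level was the highest with a mitochondrial limit of 20% or with doublets kept, which left 2. With the mean CPM per cell, or with more doublets removed, *Rarb* was also highest in fibroblast-like cells on Day 7, which made 4. The binding proteins *Crabp1* and *Crabp2* and the breakdown enzyme *Cyp26b1* then had their highest level in mesenchymal-like cells. On Day 7 the 38 epithelial-like cells, under the limit of 50 cells, had *Crabp2* at 189 CPM (144 to 245) from 58 UMIs, above the 76.9 CPM (35.2 to 146) from 9 UMIs in mesenchymal-like cells, and they ranked first for it under the same 2 settings. Of those 58 UMIs, 5 were in the 32 cells of the basal cluster and the others in 6 suprabasal cells.

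**Figure D1:**
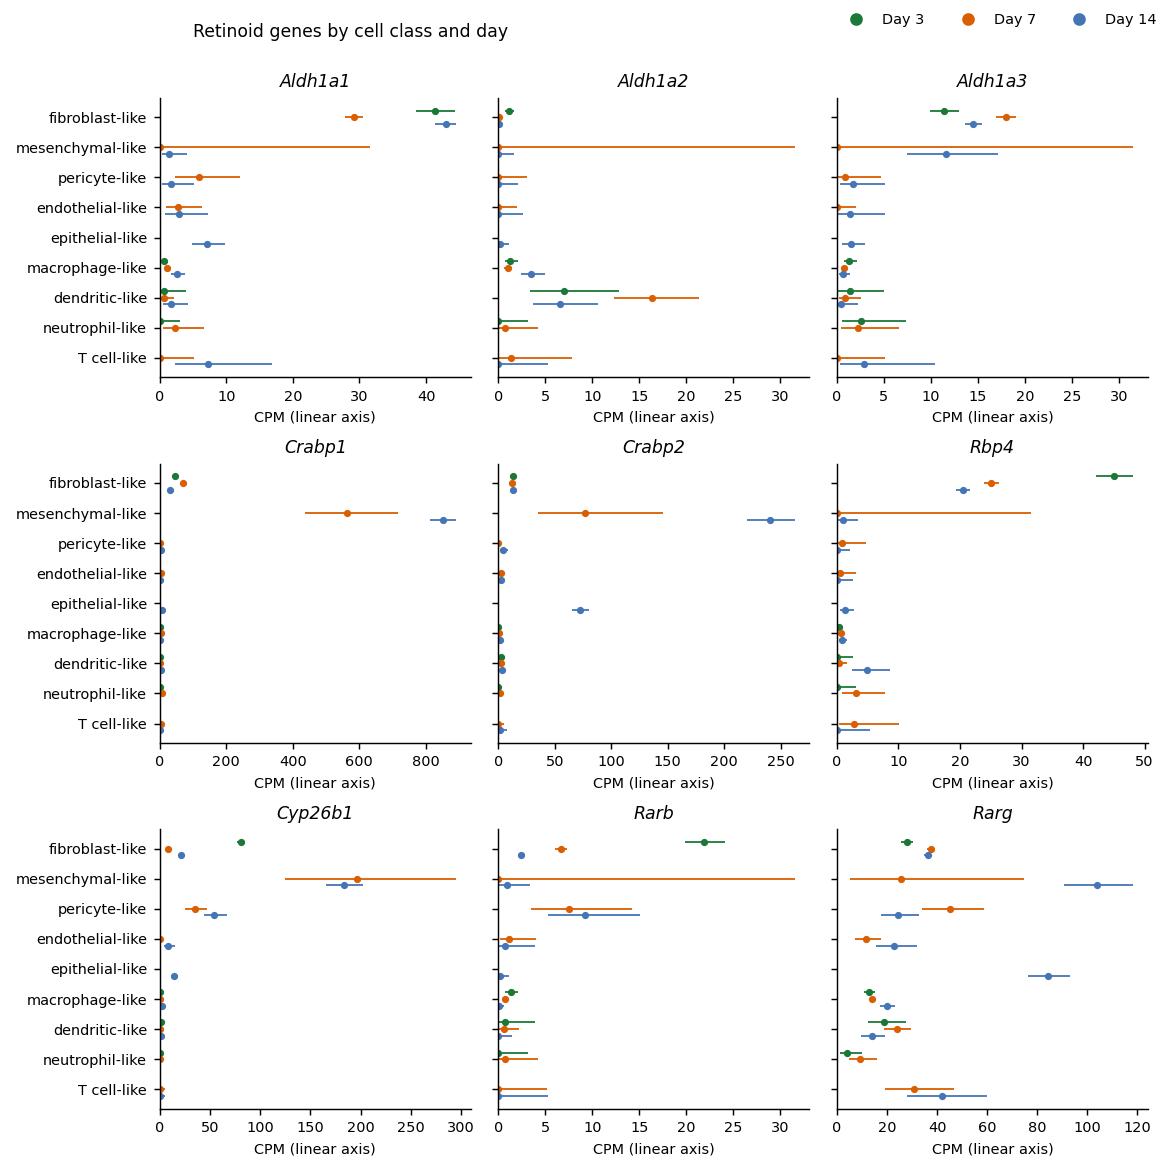
Level of each of the 9 genes (CPM, linear axis, 1 panel a gene) in each cell class with at least 50 cells on Day 3, Day 7 and Day 14, with 95% Poisson intervals that cover counting error only. *Aldh1a1*, *Aldh1a3* and *Rbp4* are highest in fibroblast-like cells on Days 7 and 14, while *Crabp1* reaches 851 CPM in mesenchymal-like cells on Day 14.

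The synthesis transcripts among the members in fibroblast-like cells were mainly *Aldh1a1* and *Aldh1a3*, whose enzymes oxidise retinal to retinoic acid. *Aldh1a1* (ENSMUSG00000053279, chr19:20492715-20643465, plus strand, GRCm38) stood at 41.4 CPM (38.6 to 44.3, from 802 UMIs), 29.2 CPM (27.9 to 30.6) and 42.9 CPM (41.4 to 44.5) on Days 3, 7 and 14. The Day 7 library was thus the low one, and the intervals of Days 3 and 14 overlapped. Clusters 12 and 21 were also lower on Day 7 than on Day 3, with log2 ratios of −1.33 and −1.86. Between Days 7 and 14 the clusters went both ways, since cluster 5 was higher, with a log2 ratio of 0.32, while cluster 7 was lower, at 52.0 and 41.8 CPM, and cluster 16 was lower, at 75.6 and 53.2 CPM. Fibroblast-like cells held 98.2%, 96.8% and 96.0% of each library's *Aldh1a1* UMIs. A near-identical mouse gene, *Aldh1a7*, lies close to it, with 2, 1 and 7 UMIs in fibroblast-like cells, and reads that fit both cannot be separated in these counts.

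*Aldh1a3* (ENSMUSG00000015134, chr7:66390890-66427517, minus strand) had 11.4 CPM (9.90 to 13.0), 18.0 CPM (16.9 to 19.0) and 14.5 CPM (13.6 to 15.4) in fibroblast-like cells on Days 3, 7 and 14. Inside the clusters that Days 3 and 7 shared it went the other way, from 9.12 to 1.38 CPM in cluster 12, a log2 ratio of −2.72 (−3.59 to −1.94), and from 13.1 to 5.29 CPM in cluster 21, a log2 ratio of −1.31 (−1.93 to −0.73). It was gathered in 1 cluster on each of the later days. On Day 7, cluster 5, led by *C3*, *Akr1c18* and *Pi16*, held 80.5% of its fibroblast-like UMIs in 35.5% of the cells, and on Day 14 cluster 16, also with *Akr1c18* and *Pi16* among its leading genes, held 68.7% in 10.9% of the cells. Mesenchymal-like cells of Day 14 had 25 UMIs, or 11.6 CPM, and pericyte-like cells 1 to 3 UMIs on each day. Epithelial-like cells had 15 UMIs, or 49.0 CPM (27.4 to 80.8), in the 38 cells of Day 7, with 2 of the UMIs in 32 of the cells and the others in 6 cells, and 1.45 CPM in the 714 cells of Day 14.

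*Aldh1a2* (ENSMUSG00000013584, chr9:71215789-71296243, plus strand) makes retinoic acid in many embryonic tissues and, in the adult, in dendritic cells and macrophages. It was scarce in fibroblast-like cells, with 22, 7 and 3 UMIs on Days 3, 7 and 14. Dendritic-like cells had 6.99, 16.4 and 6.54 CPM. Within them, cluster 23, with *Ccl22* and *Ccr7* of mature dendritic cells, had 39.1 CPM (27.2 to 54.3) on Day 7 and 29.9 CPM on Day 14. An unnamed cluster, 18, led by *Retnla*, *Lyz1*, *Ear2* and *Mgl2*, was at a like level on Days 7 and 14, with 46.5 CPM (34.9 to 60.7) and 40.03 CPM (33.1 to 48.1). Its best marker list was that of macrophages, with 7 markers, and it stayed unnamed because of its leading genes. Where the *Aldh1a2* UMIs lay differed by library. On Day 3, fibroblast-like cells held 44.9% of the library's 49, macrophage-like cells 30.6% and dendritic-like cells 20.4%. On Day 14, 69.0% of the library's *Aldh1a2* UMIs were in unnamed clusters, 19.3% in macrophage-like, 9.36% in dendritic-like and 1.75% in fibroblast-like cells. Cluster 18 held 115 of the 118 UMIs in unnamed clusters. With cells classed singly, the highest class for *Aldh1a2* on Day 14 was macrophage-like in place of dendritic-like.

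The carrier of retinol in plasma, *Rbp4* (ENSMUSG00000024990, chr19:38116629-38125281, minus strand), followed fibroblast-like cells closely. They held 98.5%, 98.0% and 97.1% of its UMIs, at 45.0 CPM (42.1 to 48.1), 25.1 CPM (23.9 to 26.4) and 20.5 CPM (19.4 to 21.6) on Days 3, 7 and 14. Day 3 was highest and the intervals did not overlap. Inside the clusters that Days 3 and 7 shared, the levels were close, 50.8 and 48.2 CPM in cluster 12, a log2 ratio of −0.08 (−0.26 to 0.10), and 41.0 and 43.5 CPM in cluster 21, a log2 ratio of 0.09 (−0.15 to 0.32). On Day 7, cluster 12, led by *Cxcl5* and *Saa3*, held 35.3% of the *Rbp4* UMIs in 16.3% of the cells, and on Day 14 clusters 3 and 7 held 44.3% and 31.3%. From Day 7 to Day 14, *Rbp4* was higher inside clusters 3 (2.34 CPM from 3 UMIs and 22.1 CPM, a log2 ratio of 3.24, 1.69 to 5.52), 7 (4.80 and 25.7 CPM) and 9 (25.5 and 53.6 CPM) and lower inside cluster 5 (14.5 and 4.92 CPM), while the class level was lower.

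**Figure D2:**
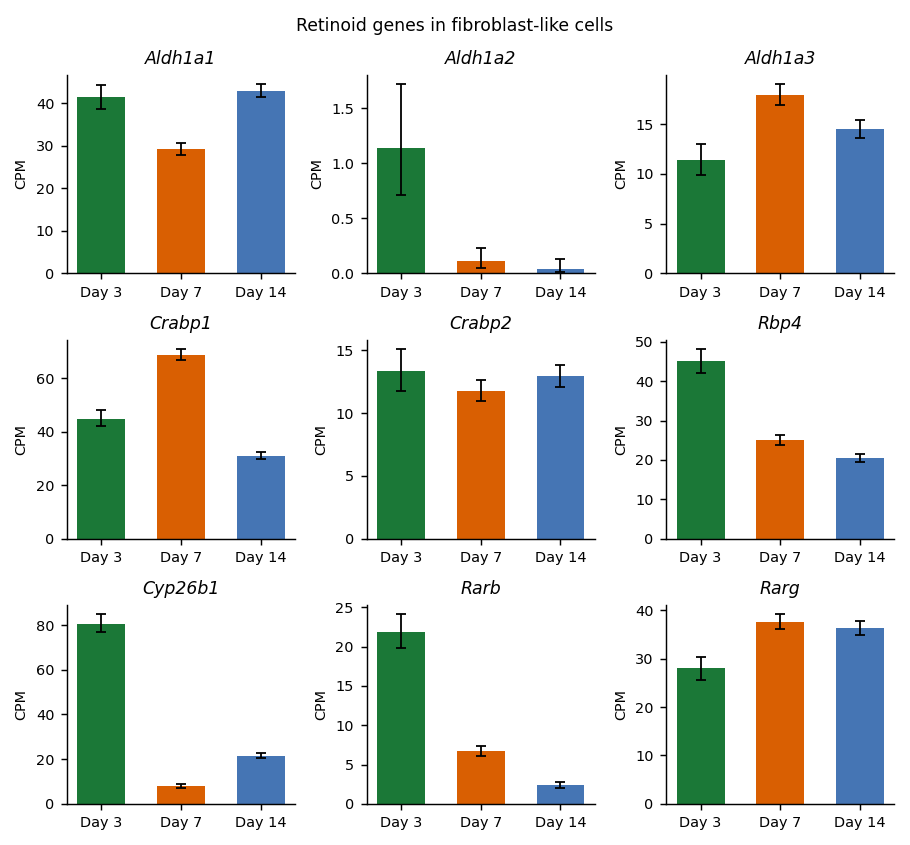
Level of each of the 9 genes in fibroblast-like cells (bars, CPM, axis from 0) on Day 3 (383 cells), Day 7 (5843 cells) and Day 14 (6597 cells), with 95% Poisson intervals for counting error only. *Cyp26b1* is at 80.6 CPM in the Day 3 library, 7.92 CPM in the Day 7 library and 21.6 CPM in the Day 14 library, and *Rarb* is lower at each later day.

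The binding protein *Crabp1* (ENSMUSG00000032291, chr9:54764748-54773110, plus strand), which holds retinoic acid in the cytoplasm, had its peak in fibroblast-like cells on Day 7. Its levels were 44.9 CPM (42.0 to 48.0), 68.8 CPM (66.7 to 70.8) and 30.9 CPM (29.7 to 32.3) on Days 3, 7 and 14. The Day 14 level was 2.22-fold below that of Day 7, a log2 ratio of −1.15 (−1.23 to −1.08). The fibroblast-like class held 94.9% of the library's *Crabp1* UMIs on Day 7 but 52.8% on Day 14, when mesenchymal-like cells held 45.0%.

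*Crabp1* was spread unevenly over the fibroblast-like clusters, most so on Day 14. On Day 3, cluster 21, a cycling cluster, held 77.8% of the UMIs in 38.4% of the cells. A share of UMIs also follows depth. Among Day 3 cells with at least 2000 UMIs, the median was 58578 UMIs in cluster 21 and 41672 UMIs in cluster 12. By level, *Crabp1* was at 72.7 CPM in cluster 21 and 18.3 CPM in cluster 12. On Day 7, cluster 9, led by *Tnn*, *Acta2* and *Lrrc15*, genes of myofibroblasts and contractile cells, held 59.9% in 26.7% of the cells at 152 CPM. On Day 14 the same cluster was 82 cells, 1.24% of the class, and held 36.5% of the UMIs at 1108 CPM, a log2 ratio of 2.87 (2.75 to 2.98) to Day 7. The class level and the level in cluster 9 thus differed in direction between the Day 7 and Day 14 libraries. Thinned to 2000 UMIs, 14.4% of 1542 cells of cluster 9 had a *Crabp1* UMI on Day 7 and 29.1% of 79 cells on Day 14. The unthinned shares were 32.1% and 31.6%, so most cells of cluster 9 had none on either day. The interval of the ratio counts UMIs and not cells. Cluster 10, led by *Igfbp2* and *Gal*, held a further 45.3% on Day 14 in 22.0% of the cells. There the level went from 609.7 CPM (511.5 to 721.2) in 35 cells on Day 7 to 74.3 CPM (69.7 to 79.1) on Day 14, and the share of cells with a UMI, thinned to 2000 UMIs, from 29.4% to 7.64%.

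The related *Crabp2* (ENSMUSG00000004885, chr3:87948666-87953376, plus strand), which carries retinoic acid to its receptors in the nucleus, was at like levels in fibroblast-like cells of the 3 days, with 13.4 CPM (11.8 to 15.1), 11.8 CPM (11.0 to 12.7) and 12.9 CPM (12.1 to 13.8). All 3 intervals overlapped. Inside clusters it was not level. From Day 3 to Day 7 it was higher in cluster 12, at 15.3 and 23.6 CPM, a log2 ratio of 0.63 (0.33 to 0.93), and in cluster 21, at 10.3 and 19.1 CPM, a log2 ratio of 0.89 (0.48 to 1.30). Between Days 7 and 14 it was higher in cluster 7, with a log2 ratio of 2.47 (1.30 to 3.94), and in cluster 9, with 1.19 (0.49 to 1.83). Fibroblast-like cells held 95.9%, 88.2% and 48.9% of its UMIs on Days 3, 7 and 14, and on Day 14 mesenchymal-like cells held 28.2% and epithelial-like cells 18.9%. Shares of a library, those of the other members too, also follow the cells captured, and the mesenchymal-like and epithelial-like classes held 63 and 38 cells on Day 7 but 724 and 714 on Day 14. The epithelial-like cells of Day 14 had 72.2 CPM, with 118 CPM in the suprabasal cluster and 20.8 CPM in the basal one. A subcluster of 61 epithelial-like cells over all libraries, led by late cornified envelope genes of the *Lce1* family, had 271 CPM (227 to 321). In fibroblast-like cells, cluster 29, led by *Cldn1*, *Sbspon* and *Apod*, reached 248 CPM in 84 cells on Day 14 and held 19.0% of the *Crabp2* UMIs in 1.27% of the cells.

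*Cyp26b1* (ENSMUSG00000063415, chr6:84571414-84593908, minus strand), which breaks down retinoic acid, differed most between libraries among the members with more than 100 UMIs on each day. Fibroblast-like cells had 1563, 498 and 1502 of its UMIs in the 3 libraries, or 80.6 CPM (76.7 to 84.7), 7.92 CPM (7.24 to 8.65) and 21.6 CPM (20.5 to 22.7). Day 7 was 10.2-fold below Day 3, a log2 ratio of −3.35 (−3.50 to −3.20), and Day 14 was 2.73-fold above Day 7, a log2 ratio of 1.45 (1.30 to 1.60). The cells that carried it differed too. Cluster 12 went from 99.3 CPM on Day 3 to 3.03 CPM on Day 7, a log2 ratio of −5.04 (−5.57 to −4.55), and cluster 21 from 59.6 to 16.1 CPM. On Day 14, cluster 10 held 87.5% of the *Cyp26b1* UMIs in 22.0% of the fibroblast-like cells, at 100 CPM. The higher class level of Day 14 was not found inside each cluster. Its log2 ratio of Day 14 over Day 7 was 1.77 (1.20 to 2.30) in cluster 9. It was, however, −1.76 (−2.79 to −0.57, from 59 UMIs against 9) in cluster 3. In cluster 16 it was −2.69 (−4.81 to −0.57, from 5 UMIs against 5). Cluster 10 was at 273 CPM (209 to 351) in 35 cells on Day 7 and at 100 CPM on Day 14. In cluster 10, thinned to 2000 UMIs a cell, 35.3% of 34 cells had a *Cyp26b1* UMI on Day 7 and 15.5% of 1401 cells on Day 14.

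**Figure D3:**
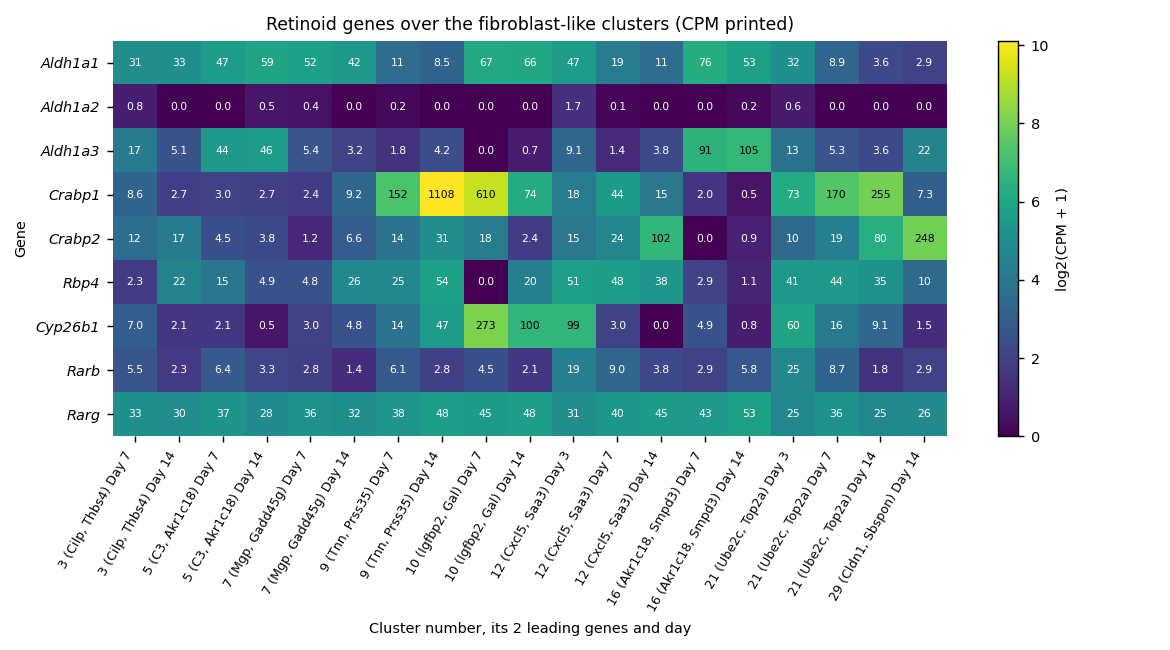
Level of each of the 9 genes in each fibroblast-like cluster with at least 20 cells on a day (colour, log2(CPM + 1), with the CPM printed in each cell of the grid). *Cyp26b1* stands at 99.3 CPM in cluster 12 on Day 3 and at 3.03 CPM in the same cluster on Day 7, and *Crabp1* reaches 1108 CPM in cluster 9 on Day 14.

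Outside the fibroblast-like cells, *Cyp26b1* was also found in pericyte-like cells, which wrap small vessels, at 35.1 CPM on Day 7 and 54.5 CPM on Day 14. Endothelial-like cells had 0 UMIs on Day 7 and 12 UMIs, or 8.50 CPM, on Day 14. The share of the library's *Cyp26b1* UMIs in fibroblast-like cells was 97.0%, 85.0% and 71.3% on Days 3, 7 and 14, and on Day 14 mesenchymal-like cells held 18.8% and pericyte-like cells 4.46%.

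Of the receptors, *Rarb* (ENSMUSG00000017491, with the promoter printed above) was lower at each later day, and *Rarg* was not. In fibroblast-like cells *Rarb* had 425, 419 and 168 UMIs in the libraries of Days 3, 7 and 14, or 21.9 CPM (19.9 to 24.1), 6.66 CPM (6.04 to 7.33) and 2.41 CPM (2.06 to 2.81), and its level on Day 14 was 9.08-fold below that on Day 3. The intervals did not overlap. The same direction was found inside the clusters that Days 3 and 7 shared, from 19.4 to 8.996 CPM in cluster 12 and from 24.5 to 8.71 CPM in cluster 21. Between Days 7 and 14 each of the intervals of *Rarb* inside a fibroblast-like cluster (3, 5, 7, 9 and 16) held 0, and cluster 16 was on the higher side, with a log2 ratio of 0.97 (−0.69 to 3.31) from 38 against 3 UMIs. Pericyte-like cells had 7.52 CPM from 9 UMIs on Day 7 and 9.27 CPM from 16 UMIs on Day 14.

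*Rarg* (ENSMUSG00000001288, chr15:102234938-102257517, minus strand) is the retinoic acid receptor most known from epidermis. Alone of the 9 genes, *Rarg* had UMIs in every named class of at least 50 cells on each day. Fibroblast-like cells had 28.0 CPM (25.7 to 30.4), 37.6 CPM (36.1 to 39.1) and 36.2 CPM (34.8 to 37.7). Days 7 and 14 did not differ beyond counting error, with a log2 ratio of −0.05 (−0.13 to 0.03). Epithelial-like cells had 84.5 CPM on Day 14, macrophage-like cells 13.0, 14.1 and 20.2 CPM, and T cell-like cells 30.8 and 41.9 CPM on Days 7 and 14. Macrophage-like cells held 21.2% of the *Rarg* UMIs of the Day 3 library.

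Set together, 0 of the 9 genes were at least 2-fold higher in fibroblast-like cells on Day 7 than on Day 3, where 14.5% of the 15600 genes tested were, and 3 of the 9, *Aldh1a2*, *Cyp26b1* and *Rarb*, were at least 2-fold lower, where 10.9% of all genes were. From Day 7 to Day 14, 1 of the 9, *Cyp26b1*, was at least 2-fold higher against 9.45% of 16708 genes, and 3 of the 9, *Aldh1a2*, *Crabp1* and *Rarb*, were at least 2-fold lower against 11.2%, *Aldh1a2* with an interval that held 0 (−3.95 to 0.76, from 3 against 7 UMIs). Alternatives changed some of these calls. With the mean CPM per cell, *Aldh1a3* was 1.01 and *Rbp4* −1.15 on the log2 scale for Day 7 over Day 3, past 2-fold. For Day 14 over Day 7, *Crabp1* was −0.97 with median-of-ratios scaling and *Aldh1a2* −0.03 with cells classed singly, both short of it. Because the genes were chosen on these values, nothing is read from the counts, and both comparisons use the Day 7 library. The median log2 ratio of the 9 genes was −0.50 for Day 7 over Day 3 beside −0.08 over all genes, and −0.30 for Day 14 over Day 7 beside −0.16, and the all-gene shifts were not removed from the ratios given here. The log2 ratios of the remaining members ran from −0.84 (*Rbp4*) to 0.66 (*Aldh1a3*) for Day 7 over Day 3 and from −0.31 (*Aldh1a3*) to 0.56 (*Aldh1a1*) for Day 14 over Day 7. Markers of other cell types in the fibroblast-like cells moved as well. The 8 macrophage markers summed to 101, 336 and 187 CPM and the 8 neutrophil markers to 73.3, 88.4 and 37.9 CPM on Days 3, 7 and 14, with 1 neutrophil marker at 0 on Day 14. The 8 mesenchymal markers summed to 257, 92.8 and 173 CPM in them, with 2 at 0 on Day 3, when the library held 4 mesenchymal-like cells. The part of RNA from other cell types in the ratios was not tested.

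Mesenchymal-like cells differed from fibroblast-like cells in which members they held. Their 8 markers, a list that follows the study's own cluster table from these libraries and so is no independent check of the class, summed to 14930 CPM on Day 7 and 13186 CPM on Day 14, against 92.8 and 173 CPM in fibroblast-like cells. On Days 7 and 14, *Crabp1* was at 564 CPM (436 to 718) from 66 UMIs and at 851 CPM (813 to 891) from 1836 UMIs. The 4 such cells of Day 3 had 17 *Crabp1* UMIs, too few cells for a level. On Day 14, *Crabp1* was 27.5-fold above fibroblast-like cells, a log2 ratio of 4.78 (4.69 to 4.87). *Crabp2*, at 241 CPM (220 to 262), was 18.6-fold above them, *Cyp26b1*, at 184 CPM (166 to 203), was 8.51-fold above, and *Rarg*, at 104 CPM (90.7 to 118), was 2.87-fold above. *Aldh1a1* and the carrier went the other way, with 3 UMIs of *Aldh1a1* and 2 UMIs of *Rbp4* in 724 cells, log2 ratios of −4.95 and −4.46. The other synthesis enzyme, *Aldh1a3*, was at 11.6 CPM, with a log2 ratio of −0.32 (−0.96 to 0.25). These ratios are to the whole fibroblast-like class, and single fibroblast-like clusters of Day 14 came closer. *Crabp1* was at 1108 CPM in cluster 9 and *Crabp2* at 248 CPM in cluster 29, no lower than in mesenchymal-like cells. On Day 7, *Cyp26b1* was at 273 CPM (209 to 351) in the 35 cells of cluster 10 and at 197 CPM (125 to 295) in mesenchymal-like cells. On Day 14, *Cyp26b1* reached 100 CPM in cluster 10 and *Rarg* 53.2 CPM in cluster 16, below the mesenchymal-like levels. A finer fibroblast-like subcluster of Day 14, of 118 cells and given below, was no lower than mesenchymal-like cells for *Cyp26b1*. Of the 8 members with enough UMIs (all but *Aldh1a2*), 4 were at least 2-fold higher, against 32.4% of 15734 genes, and 3 at least 2-fold lower, against 19.1%, the third being *Rarb* with a log2 ratio of −1.38 (−4.44 to 0.49).

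The share of cells with a UMI depends on depth, so cells were thinned to a fixed number of UMIs. After thinning to 500 UMIs, *Crabp1* was found in 14.3% of mesenchymal-like cells on Day 7 (9 of 63) and 28.5% on Day 14 (206 of 724), beside unthinned shares of 49.2% and 60.9%. In fibroblast-like cells it was found in 2.09%, 2.57% and 0.834% on Days 3, 7 and 14, and in neutrophil-like cells of Day 7, which are not known to use it, in 0.362%. Median depths before thinning were 10344 UMIs in fibroblast-like and 712 UMIs in neutrophil-like cells of Day 7. The *Crabp1* share was thus higher in fibroblast-like than in neutrophil-like cells of Day 7. The part of free RNA in these shares was not tested. By level, neutrophil-like cells of Day 7 had *Crabp1* at 8.33 CPM from 11 UMIs. On that day fibroblast-like clusters 5, 7 and 16 were lower, at 2.98, 2.40 and 1.96 CPM, and cluster 3 was close, at 8.60 CPM. Clusters 9, 10, 12 and 21 were higher, at 152, 609.7, 44.3 and 170 CPM. *Rarg* was in 1.78% of fibroblast-like and 0.483% of neutrophil-like cells on Day 7. *Rarb* was in 0.0455% of fibroblast-like cells on Day 14, 3 cells, too few to read.

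At 2000 UMIs a cell, shallower cells left out (1, 64 and 94 on Days 3, 7 and 14), *Cyp26b1* was found in 9.69%, 1.28% and 3.86% of fibroblast-like cells on Days 3, 7 and 14, beside unthinned shares of 33.0%, 2.96% and 8.53%. *Rarb* was found in 3.66%, 1.12% and 0.507%, beside 53.4%, 6.68% and 2.37%. The order of days in CPM was kept for both genes after thinning. *Crabp1* shares were 4.19%, 6.47% and 2.51%, *Rbp4* shares 7.07%, 3.98% and 3.44%, and *Rarg* shares 6.02%, 6.66% and 6.60%.

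The fibroblast-like class was split further in the Day 7 library and, separately, in the Day 14 library, leaving out the 9 genes and the other retinoid genes. The members were spread unevenly. For 7 of the 8 genes with enough UMIs (*Aldh1a2* had too few), all but *Rarg*, the highest subcluster was at least 2-fold above the other cells on each day, which was also so for 44.4% of all genes on Day 7 and 51.3% on Day 14. Some subclusters were led by genes of other classes, such as *Cd74* and *Lyz2* or *S100a9* on Day 7 and *Krt14* on Day 14.

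On Day 7, a subcluster of 65 cells, 1.11% of the class, led by *Coch*, *Igfbp2* and *Grem1* with *Cyp26b1* and *Crabp1* among its leading genes, held 47.4% of the *Cyp26b1* UMIs at 418 CPM (366 to 475) and 16.8% of the *Crabp1* UMIs at 1288 CPM. Another, led by *Acta2*, *Spp1* and *Tagln*, held 36.8% of the *Crabp1* UMIs in 9.29% of the cells at 252 CPM. *Aldh1a3* lay elsewhere, with 57.9% of its UMIs in a subcluster led by *Edn1*, *Akr1c18* and *Pi16* that was 12.8% of the cells, at 107 CPM. A subcluster led by *Cxcl5* and *Nos2*, 5.97% of the cells, held 23.0% of *Rbp4*, 27.5% of *Crabp2* and 16.5% of *Rarb* UMIs.

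On Day 14, a subcluster of 118 cells, 1.79% of the class, with *Prss35*, *Igfbp2*, *Mmp11*, *Tnn* and *Lrrc15*, held 60.5% of the *Crabp1* UMIs at 1142 CPM (1081 to 1206) and 15.6% of the *Cyp26b1* UMIs at 205 CPM. Most *Cyp26b1* was in other cells, 41.9% in a subcluster led by *Gal* and *Wfdc12* at 110.5 CPM and 32.8% in one led by *Coch*, *Enpp2* and *Lgr5* at 82.9 CPM. *Crabp2* was split between a subcluster led by *Tnc* and *Inhba*, with 37.1% of its UMIs at 109 CPM, and one led by *Stmn1* and *Cldn1*, with 27.7% at 139.9 CPM. *Rarg* varied from 22.8 to 60.4 CPM across the Day 14 subclusters.

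**Figure D4:**
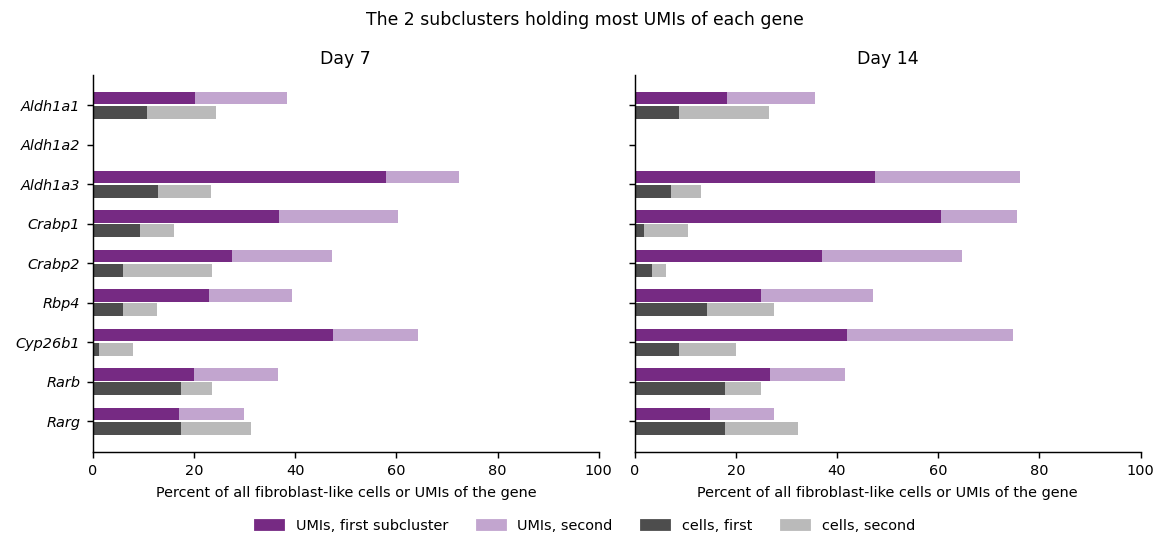
For each gene but *Aldh1a2*, the percent of its fibroblast-like UMIs held by the 2 subclusters with most of them, beside the percent of fibroblast-like cells in those subclusters, on Day 7 and Day 14. The largest single share is that of *Crabp1* on Day 14, 60.5% of UMIs in 1.79% of cells.

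*Crabp1* and *Cyp26b1* were found in the same cells more often than the product of their shares gives. At 2000 UMIs a cell, 36 fibroblast-like cells of Day 7 held both where 4.79 would follow from the product, and 35 of Day 14 where 6.29 would. *Aldh1a3* and *Cyp26b1* shared 0 cells on Day 7, where 3.01 would follow. Cells of 1 library are not replicates, so these counts carry no test.

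The other genes of the pathway, 46 in lists drawn from textbook knowledge, were counted in the same fibroblast-like cells. From Day 3 to Day 7, 8 of the 33 tested were at least 2-fold higher, beside 14.5% of all genes, and 6 at least 2-fold lower, beside 10.9%. From Day 7 to Day 14, 6 of 34 were higher, beside 9.45%, and 4 lower, beside 11.2%. *Rdh10*, which turns retinol into retinal ahead of the *Aldh1a* enzymes, was at 231, 44.3 and 32.1 CPM on Days 3, 7 and 14. *Lpl*, a lipase that also acts on retinyl esters, was at 81.9, 161 and 277 CPM. *Dhrs3*, which turns retinal back into retinol, was at 50.5, 50.2 and 26.3 CPM.

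*Fabp5*, a second route for retinoic acid to the nucleus, was at 69.1, 125 and 34.3 CPM, and in epithelial-like cells of Day 14 at 3519 CPM. *Stra6*, the receptor that takes up retinol from *Rbp4*, had 0 UMIs on Day 3 and 2.96 and 0.719 CPM on Days 7 and 14. The breakdown enzymes related to *Cyp26b1* were nearly absent, with 1, 2 and 3 UMIs of *Cyp26a1* and 0 of *Cyp26c1*. The receptors *Rara* and *Rxra* were at 17.8, 22.3 and 21.5 CPM and at 18.5, 18.1 and 12.7 CPM. Genes known to respond to retinoic acid did not move as one, since *Tgm2* was at 8.41, 18.8 and 20.8 CPM and *Rarres2* at 1460, 551 and 606 CPM.

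**Figure D5:**
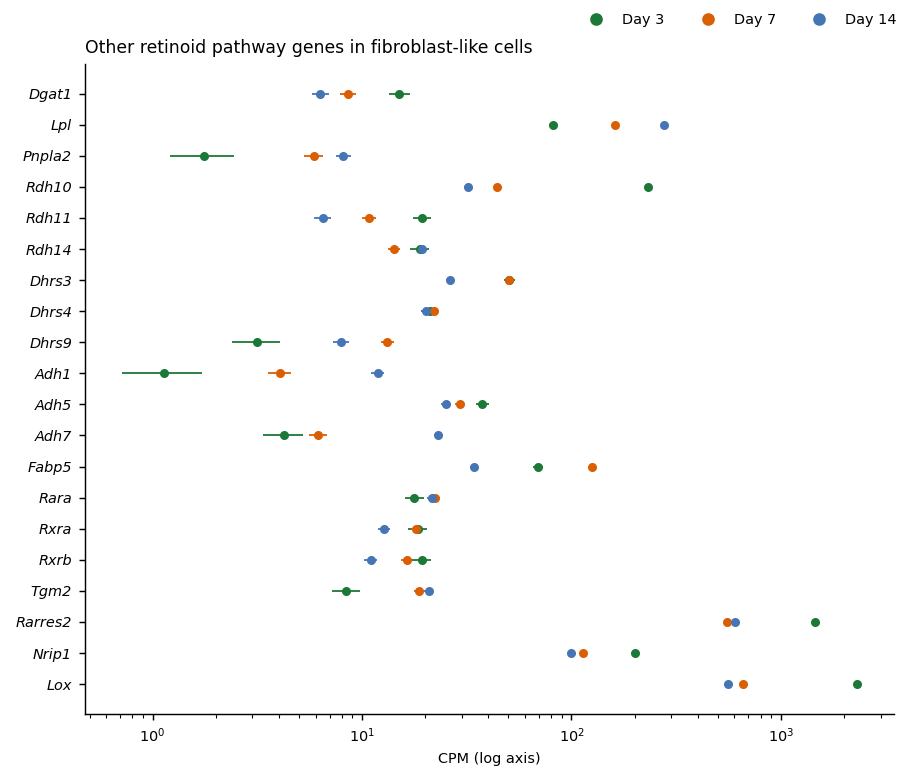
Level of the pathway genes reported here with at least 5 CPM in fibroblast-like cells on any day (CPM, log axis) on Day 3, Day 7 and Day 14, in the order of the lists. *Rdh10* is highest on Day 3, at 231 CPM, and *Lpl* on Day 14, at 277 CPM.

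The genes most like each member were sought by Pearson correlation of log2(CPM + 1) over the 20 combinations of class and day with at least 50 cells, among 10397 genes. The points share 3 libraries and differ in depth, so r is a description. A gene had to reach 20 CPM in 1 combination, which favours genes high in the same class as the member, and in the 63 mesenchymal-like cells of Day 7 such a level is 3 UMIs. *Cyp26b1* was nearest to *Fstl3* (r = 0.958), *Msi1* (0.953) and *Lgr4* (0.952), and *Crabp1* to *Snhg11* (0.952), *Cacna1g* (0.951) and *Fgf2* (0.932). *Crabp2* was nearest to *Pappa* (0.956) and *Fgfr2* (0.925), *Aldh1a1* to *1500015O10Rik* (0.926) and *Il33* (0.924), and *Rbp4* to *Fyb2* (0.905). *Rarb* was nearest to *Gpr176* (0.942), while the highest r of *Rarg* was 0.883, with *Acaca*. *Aldh1a2* and *Aldh1a3* did not reach the level of 20 CPM that the rule required.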

How the data were processed

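The deposited files hold raw UMI counts per gene and barcode, made by the authors with Cell Ranger 6.0.0 on mm10, per the submitters' processing notes, from 1 Chromium 3′ v3.1 library a day. Barcodes under 200 genes or 500 UMIs, or above 10% mitochondrial UMIs, were left out, and 4452, 21568 and 14472 remained. Of these 91, 1977 and 961 were removed as doublets, scored against simulated doublets and called up to a share of 0.5 of the expected rate, so some doublets remain. The 37463 cells were clustered together without batch alignment (30 principal components, Leiden resolution 1, 33 clusters). Clusters were named from marker lists. The scoring rule was adjusted after clusters were seen, and lymphatic cells were merged into endothelial-like. The 9 genes, the pathway lists and the markers were chosen with earlier results of these data known. The values of 1 gene of the pathway lists are not reported here, though the list counts include it. Named genes were the 9 members, the pathway lists and up to 3 genes most like each member. UMIs were summed per class and library as CPM, with exact Poisson intervals and conditional binomial intervals of ratios at 95%, for genes with at least 10 UMIs over the pair. A share has a Clopper-Pearson interval. On Poisson counts simulated from whole-library sums, ratio intervals held the true value for 95.8% of 17198 genes (Day 7 over Day 3). That simulation checks the calculation only. It did not include class or cluster sums, or UMIs gathered in few cells. Gene positions are from GENCODE on GRCm38. Python 3.11.15, numpy 2.4.6, scipy 1.17.1 and leidenalg 0.10.2 were used.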

Additional observations from a re-analysis of the deposited data

Results flagged for a closer look

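Some members differed in direction between classes over the same pair of libraries, each with an interval away from 0. With 1 library a day the differences between classes were not tested. From Day 3 to Day 7, *Aldh1a2* had a log2 ratio of 1.23 in dendritic-like and −3.35 in fibroblast-like cells. From Day 7 to Day 14, *Aldh1a2* had 1.83 in macrophage-like and −1.33 in dendritic-like cells. Among macrophage-like clusters it was 3.95 (2.14 to 5.66, from 6 UMIs against 8) in cluster 0 and 0.55 (−0.54 to 1.71) in cycling macrophage-like cluster 26, whose 109 cells held 21 of the 33 macrophage-like UMIs of Day 14. Among dendritic-like clusters it was −1.63 (−3.40 to −0.17, from 5 UMIs against 20) in cluster 11 and −0.38 (−1.51 to 0.63) in mature dendritic-like cluster 23. In unnamed cluster 18, best matched by macrophage markers and counted in neither class, it was −0.22 (−0.69 to 0.28). Over the same pair, *Crabp1* had 0.59 in mesenchymal-like cells against −1.15 in fibroblast-like and −1.07 in macrophage-like cells. The macrophage-like levels were 4.23 CPM on Day 7 and 2.02 CPM on Day 14, below the 8.33 CPM of neutrophil-like cells of Day 7. The part of free RNA in them was not tested. Inside macrophage-like clusters *Crabp1* had −2.72 (−8.11 to −0.05, from 1 UMI against 17) in cluster 4. The intervals of clusters 0, 1 and 6 held 0, with −0.09 (−1.49 to 1.46) in cluster 6. *Rbp4* had 4.04 (1.28 to 9.46, from 12 UMIs against 1) in dendritic-like and −0.30 in fibroblast-like cells. Of those 12 UMIs, 11 lay in cluster 11. The dendritic-like class also held a subcluster of 10 cells over all libraries, led by *Col1a1* and *Col3a1* and best matched by fibroblast markers. *Rarg* had 2.02 (0.45 to 4.31, from 224 UMIs against 3) in mesenchymal-like, 0.98 in endothelial-like and 0.52 in macrophage-like cells against −0.89 in pericyte-like and −0.78 in dendritic-like cells. Its intervals held 0 inside macrophage-like clusters 0, 1, 4 and 26 and inside dendritic-like clusters 11 and 23. In macrophage-like cluster 6 *Rarg* had 0.68 (0.08 to 1.31).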

How the results depend on the processing

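Of the values followed that do not answer a comparison, 146 stayed within their range under the alternatives run and 34 moved. Of those that answer a comparison, 81 stayed and 3 moved. With the mean CPM per cell in place of summed UMIs, 1 of the 9 genes (*Aldh1a3*, log2 1.01) was at least 2-fold higher on Day 7 than on Day 3 in fibroblast-like cells, in place of 0. With a minimum of 1 UMI, 10 pathway genes were higher and 7 lower on Day 14 than on Day 7, in place of 6 and 4. Among single genes, *Crabp2* for Day 7 over Day 3 ran from −0.37 to 0.05 and *Rarg* for Day 14 over Day 7 from −0.07 to 0.13, so neither class ratio has a direction. *Crabp1* for Day 14 over Day 7 was −0.97 with median-of-ratios scaling, short of 2-fold. *Aldh1a2* ran from −3.94 to −1.37 for Day 7 over Day 3 and from −2.55 to −0.03 for Day 14 over Day 7, and *Rbp4* for Day 7 over Day 3 from −1.15, past 2-fold, to −0.61. *Cyp26b1* for Day 7 over Day 3 ran from −3.55 to −3.12. The class with the highest level moved too. With a mitochondrial limit of 20% or with doublets kept, epithelial-like cells replaced pericyte-like cells for *Rarg* on Day 7. Under the same settings Schwann-like cells replaced pericyte-like cells for *Rarb* on Day 14. No paired analysis was possible because each day had 1 library, which also left no replicate to leave out. Depth limits *Aldh1a2* in fibroblast-like cells and all members in mesenchymal-like cells of Day 7, where 0 UMIs allow up to 25.6 CPM.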
